A study of Mus musculus with 15 samples.

Results

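Hearts labelled untreated were compared with hearts of sham mice, gene by gene, in a study of factor Xa and thrombin inhibitors in cardiac ischaemia and reperfusion. The comparison rests on 5 of the 11 libraries in the deposited table, chosen by their column labels: untreated replicates 17 and 19, and sham replicates 003, 006 and 007. Of the 15 samples in the labels, 6 belong to these groups, and the third untreated sample was not analysed here. All were wild-type male C57BL/6 mice of 8 to 10 weeks. The RNA is described as coming from heart tissue that held the infarct and the muscle around it. That description does not show that each of these hearts, sham included, held an infarct. Neither group was given a drug per its label. The other groups, used to estimate the spread between replicates and quoted for context, received rivaroxaban (3 mg/kg) or dabigatran (10 mg/kg) for 7 days, or activated protein C (1 mg/kg) 30 min before surgery. The labels describe the operation for the study as a whole: the left anterior descending artery, which feeds the front of the left ventricle, was tied for 90 min and reperfused for 24 h. They do not say of the untreated group itself that it was operated on, so it keeps its label as a name, and each library is named after its group and number.

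As background, heart muscle that loses and regains its blood supply releases the contents of dying cells. These act on nearby cells, in which the transcription factor NF-kB switches on cytokines and chemokines that draw neutrophils from the blood. Neutrophils are followed by monocytes, while the macrophages that live in the healthy heart can be lost. Fibroblasts later lay down collagen, the fibre protein of the scar. Stress hormones from the adrenal gland, the glucocorticoids, act on many cell types during such an injury.

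Values are log2 CPM, the base 2 logarithm of a gene's reads after scaling to the size of its library. A difference of 1 is therefore a doubling. The libraries held 31827652 and 31170553 reads on listed genes in the untreated group and 31774727, 32771278 and 29122886 in the sham group. A count of 3 reads lies between -2.70 and -2.54 in these libraries, and differences near that level are understated. The tissue was heart in all 5, where the summed level of 12 ventricular muscle cell markers, none of them at 0 in all 5, ran from 90800 to 124000 CPM. No label gives the litter, day or cage of an animal, so p-values measure the spread between these libraries, which may be technical.

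The untreated libraries differed from each other more than the sham libraries did. Over the 13541 tested genes, the SD of the difference from the sham mean was 0.59 in untreated 17 and 0.92 in untreated 19, against 0.28 to 0.33 for a sham library set against the remaining sham libraries. The SDs of the untreated libraries hold the difference between the groups besides the spread. Library weights estimated from the spread within groups were 0.242 for each untreated library, and 3.15, 1.39 and 0.917 for sham 003, 006 and 007. A lower weight stands for a wider spread, so the common error of the fit is too small for the untreated group. For that reason most weight goes to genes for which both untreated libraries lay on the same side of all 3 sham libraries. They did so for 2896 genes above and 2992 below, which is 43.5% of the tested genes and no test.

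A total of 1435 genes, 10.6% of those tested, were called at an adjusted p under 0.05 (two-sided limma fit of 5 groups, Benjamini-Hochberg adjustment). Of these, 687 were higher in untreated hearts (5.07%) and 748 lower (5.52%), and for none of them did an untreated library overlap the sham range. The log2 difference was 1 or more in 368 of the called genes and -1 or less in 478. The count fell to 471 genes (3.48%) in a limma fit of the untreated and sham libraries alone and to 25 with weights that count the more variable libraries less. With such weights, 2 or fewer members of any list described below were called. It was 703 without untreated 19, 5197 without untreated 17, 447, 261 and 710 without sham 003, 006 and 007, and 862 and 865 without the one or the other rivaroxaban library. A core of 243 genes, 1.79% of those tested, was called in the same direction whichever of the 11 libraries was left out, 122 of them higher and 121 lower. Such genes are called robust below. In the fit of the untreated and sham libraries alone, 229 of the 243 were called. With the weights that count the more variable libraries less, only 25 of the 243 were called. The word robust therefore refers to leaving out a library and not to the wider spread of the untreated group.

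**Figure D1:**
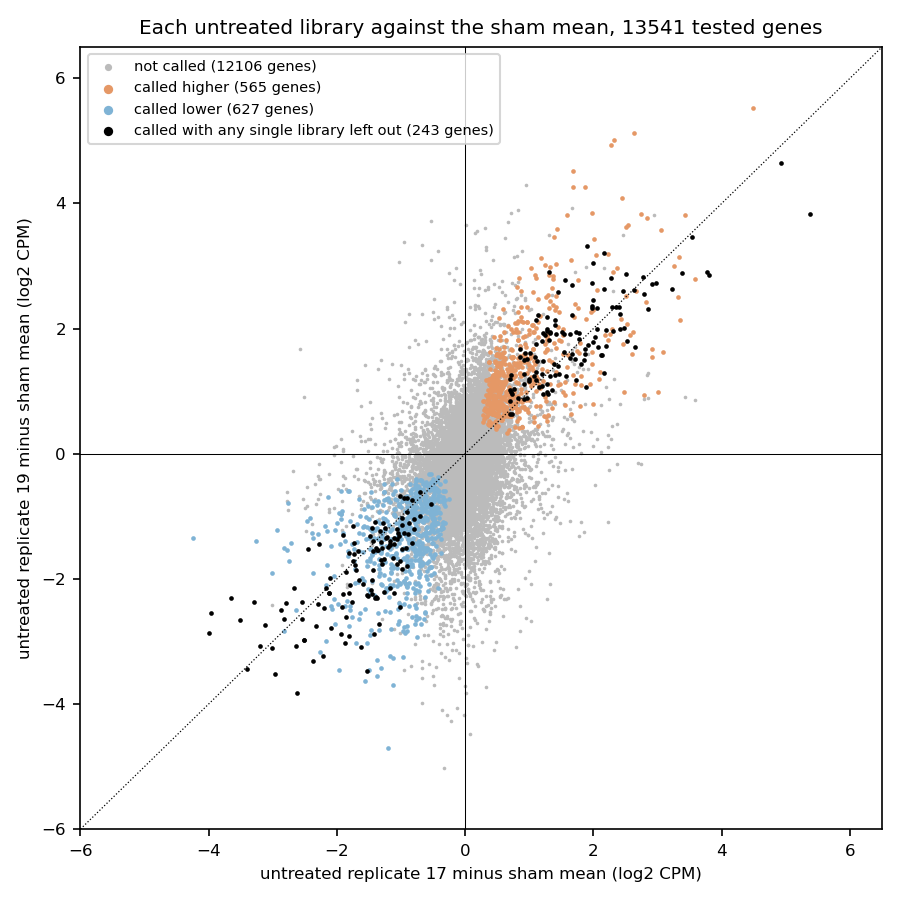
Each point is a tested gene, with its log2 CPM in untreated replicate 17 minus the sham mean on the horizontal axis and the same for untreated replicate 19 on the vertical axis. The cloud is taller than wide (SD 0.92 against 0.59), and the 243 robust genes, in black, lie near the dotted line of equal differences and away from 0.

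Among robust genes with a mean of at least 1, the largest rise was that of Inhbb (chr1:119415465-119422248, mm10, minus strand), which encodes the beta B chain of activin and inhibin, secreted factors of the TGF beta family. Its level was 7.68 and 6.14 in untreated 17 and 19 and 2.39, 2.22 and 2.30 in the sham libraries. The untreated libraries lay far above a tight sham group, with a log2 difference of 4.61 ± 0.37 (limma SE, adjusted p 0.000246). Next came AA467197, at 3.46 and 3.38 against -0.26, 0.12 and -0.11 in sham (3.50 ± 0.39, adjusted p 0.00148).

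Grk5 (chr19:60889749-61095968, plus strand) encodes a kinase that switches off activated G protein-coupled receptors, the beta adrenergic receptors of heart muscle among them. It stood at 9.42 and 8.57 in untreated hearts and at 5.63, 5.52 and 5.80 in sham, a difference of 3.34 ± 0.26 (limma adjusted p 0.000234). Coro2b, a coronin that binds actin filaments (chr9:62419492-62537044, minus strand), was at 9.05 and 8.45 against 5.94, 5.71 and 5.80 (2.93 ± 0.21, adjusted p 0.000189). Camk2b, a chain of the calcium and calmodulin dependent kinase II (chr11:5969644-6066362, minus strand), was at 7.48 and 7.28 against 4.41, 4.95 and 4.32 (2.82 ± 0.21, adjusted p 0.000189). In these 3 genes the untreated libraries also lay above all 6 drug-treated libraries, which ran from 5.51 to 6.48 for Grk5, from 5.69 to 6.34 for Coro2b and from 4.55 to 5.21 for Camk2b. The same held for Cnbd2, a gene with a cyclic nucleotide binding domain, at 8.39 and 8.15 in untreated, 5.57, 5.47 and 5.21 in sham and 5.43 to 6.64 in the drug-treated libraries (2.85 ± 0.24, adjusted p 0.000269).

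Other leading rises belonged to genes of the matrix, of fibrinolysis and of muscle stretch. Adamts4, a protease that cuts matrix proteoglycans, was at 5.57 and 5.06 against 2.08, 2.18 and 2.29 in sham (3.13 ± 0.33). Plaur, the cell surface receptor of the plasminogen activator urokinase, was at 5.33 and 5.70 against 2.56, 2.68 and 3.25 (2.69 ± 0.34), and Ankrd2, a stretch-responsive ankyrin repeat protein of muscle, at 4.63 and 5.68 against 2.51, 2.20 and 2.72 (2.68 ± 0.39). Lrp8 (2.62), a lipoprotein receptor, Map3k6 (2.54), a stress kinase, and Ctla2a (2.53), an inhibitor of cathepsin-like proteases, completed the 12. The limma adjusted p of these 6 genes ran from 0.00136 to 0.0105. In the drug-treated libraries the highest level reached 5.41 for Adamts4, 6.29 for Plaur and 5.97 for Ankrd2.

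Among the falls, several genes mark resident macrophages. Fcrls, an Fc receptor-like gene of such macrophages (chr3:87250758-87263738, minus strand), was at -0.26 and 0.87 in untreated hearts against 3.75, 4.10 and 3.35 in sham (-3.43 ± 0.40, limma adjusted p 0.00172). Timd4, a receptor by which macrophages bind dying cells, fell by 2.73, and Vsig4, a complement receptor of tissue macrophages, fell by 2.46 on the log2 scale. Aplnr, the apelin receptor, which vessels carry (chr2:85136225-85139923, plus strand), was at 1.95 and 1.90 against 5.25, 5.70 and 5.08 (-3.42 ± 0.45, adjusted p 0.00296).

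Genes of connective tissue and nerve were also among the falls. Cilp, a matrix protein that cardiac fibroblasts make, was at 1.28 and 2.64 against 5.52, 5.25 and 4.07 (-2.98 ± 0.51). Rtn4r, the Nogo receptor, was at 0.47 and 0.38 against 3.79, 3.58 and 3.08 (-3.05 ± 0.34), and Stmn2, a stathmin of neurons, at 0.51 and 0.08 against 3.27, 3.16 and 3.02 (-2.86 ± 0.33). The smallest adjusted p of the named falls belonged to Plac9a, a small secreted protein gene, at 3.78 and 3.31 against 6.34, 6.37 and 6.17 (-2.75 ± 0.15, limma adjusted p 2.72e-05). A near-identical copy, Gm9780, is listed beside it, so the split of reads between them is uncertain. The drug-treated libraries ran from 5.89 to 6.41 for Plac9a. For all 12 named falls the untreated libraries lay below all 6 drug-treated libraries, and for 7 of the 12 named rises above them. AU021092, Akr1c14 (a keto reductase), Stum and Tmem255b fell by 2.73, 2.68, 2.59 and 2.50, and for Tmem255b the adjusted p was 0.0571 in the fit of these groups alone.

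**Figure D2:**
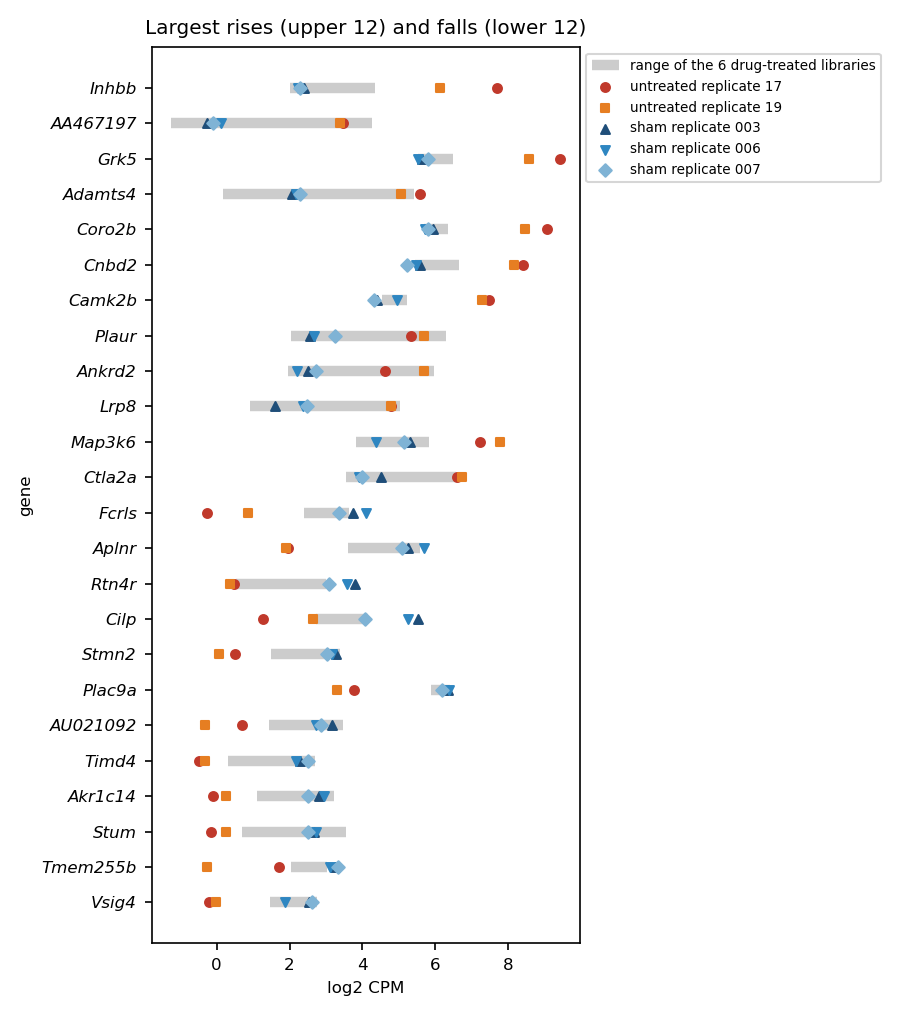
Log2 CPM (horizontal axis) of the 12 largest robust rises and the 12 largest robust falls (vertical axis), with 1 symbol per untreated or sham library and a grey bar from the lowest to the highest of the 6 drug-treated libraries. The grey bar stays below both untreated libraries for 7 of the 12 rises, Inhbb, Grk5, Coro2b, Cnbd2, Camk2b, Map3k6 and Ctla2a, and above both for all 12 falls.

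**Figure D3:**
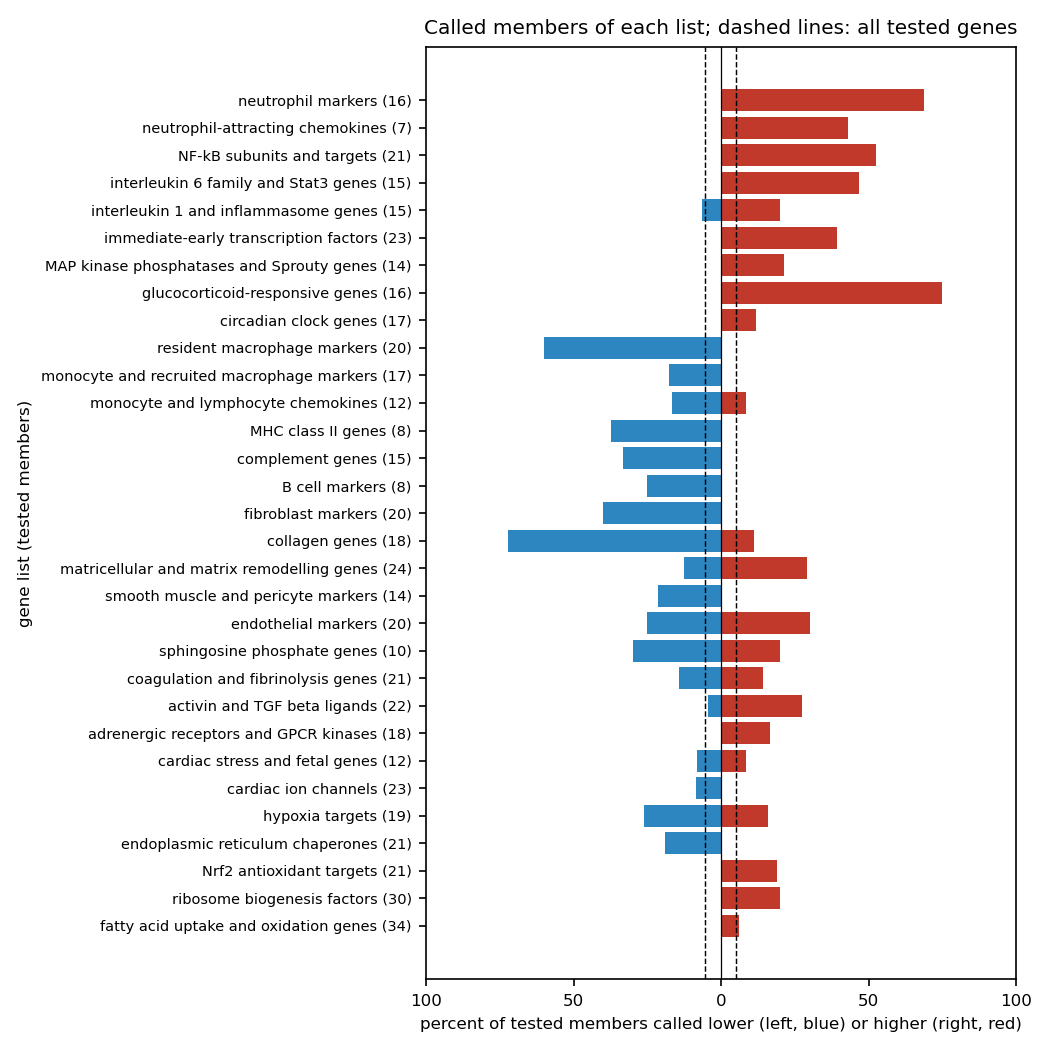
Percent of the tested members of each gene list (number in brackets) that were called higher (right, red) or lower (left, blue) in untreated against sham hearts, with dashed lines at the 5.07% and 5.52% of all tested genes. Bars of the neutrophil, NF-kB and glucocorticoid-responsive lists point to the right and those of the resident macrophage and fibroblast lists to the left, and the collagen bar points mostly to the left.

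Genes of NF-kB signalling and of neutrophil recruitment rose. Of 21 tested NF-kB subunits and targets, 11 rose and none was called lower, with a median difference of 0.85 against -0.03 for all tested genes. For this list and those below, the shares of all tested genes were 5.07% called higher and 5.52% called lower. Nfkbia, the inhibitor that holds NF-kB in the cytoplasm and is itself switched on by it, was at 6.86 and 7.46 in untreated hearts against 5.66, 5.40 and 5.52 in sham (1.63 ± 0.21, limma adjusted p 0.00286). Tnfaip3, a deubiquitinase that ends the signal, was at 4.61 and 3.74 against 2.50, 2.42 and 2.41 (1.73 ± 0.29). Nfkbiz, a nuclear cofactor of NF-kB, rose by 1.57 and Birc3, an inhibitor of cell death, by 1.15, and these 4 were robust. Tnf itself overlapped, at 0.15 and -1.03 against -0.81, -0.19 and -1.06 (0.25 ± 0.51, adjusted p 0.767). The count was 6 in the fit of these groups alone, and 4 each without sham 003 and without sham 006.

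Among 7 tested chemokines and receptors that guide neutrophils, 3 rose and the median was 1.69. Cxcl1 was at 3.72 and 5.19 against 2.45, 1.99 and 2.61 (2.10 ± 0.50, adjusted p 0.0285), Cxcl2 at 3.94 and 3.95 against 1.23, 0.99 and 2.07 (2.51 ± 0.45, adjusted p 0.0115), and Cxcl3 at 3.47 and 3.08 against 0.35, 0.27 and 1.33 (2.62 ± 0.61, adjusted p 0.0259). All 3 encode ligands of the neutrophil receptor Cxcr2, which was itself at 2.79 and 2.93 against 0.45, 0.97 and 2.09 (1.69 ± 0.67, adjusted p 0.119). Only 1 of these genes was called without untreated 19 or without sham 003, and 0 were called without sham 006. In the fit of these groups alone Cxcl1 had an adjusted p of 0.053.

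The promoters of Cxcl1, Cxcl2, Cxcl3 and Nfkbia are shown because these genes rose together and a motif for NF-kB stands close to the start of each. They are 120-base stretches ahead of the transcription start from RefSeq on GRCm38.p6, given 5′ to 3′ on the gene's own strand, and capitals mark the kappa B motif (its general form, either strand, overlapping matches merged). Cxcl1 is taken from chr5:90891115-90891234 (plus strand), Cxcl2 from chr5:90903743-90903862 (plus strand), Cxcl3 from chr5:90785969-90786088 (plus strand) and Nfkbia from chr12:55492648-55492767 (minus strand).
Cxcl1: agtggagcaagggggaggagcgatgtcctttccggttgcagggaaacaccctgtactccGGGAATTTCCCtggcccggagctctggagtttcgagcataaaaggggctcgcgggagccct
Cxcl2: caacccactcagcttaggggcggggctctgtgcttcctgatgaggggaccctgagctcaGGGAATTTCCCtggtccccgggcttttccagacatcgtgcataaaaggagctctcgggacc
Cxcl3: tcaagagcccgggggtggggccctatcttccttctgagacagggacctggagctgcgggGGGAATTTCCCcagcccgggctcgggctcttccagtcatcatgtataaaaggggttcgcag
Nfkbia: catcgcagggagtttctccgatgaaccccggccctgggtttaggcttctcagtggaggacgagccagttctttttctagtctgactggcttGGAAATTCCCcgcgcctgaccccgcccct
The marked run begins 71 bases ahead of the start in Cxcl1, 97 in Cxcl2, 73 in Cxcl3 and 29 in Nfkbia. The 3 chemokine genes lie within 1 cluster of chromosome 5 and carry the same run of letters. Of the 10392 tested genes with a promoter in the RefSeq table, 10.8% held the motif within 250 bases ahead of a start, against 13.4% of the 528 such genes called higher and 11.7% of the 573 called lower. In the NF-kB list it was 7 of 17 genes, and 3 of the 9 that were called higher. A match describes the letters and is no measure of binding.

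Neutrophil markers were higher. All 16 tested markers had both untreated libraries above all sham libraries, and 11 were called, with a median difference of 1.94. Both untreated libraries lay above sham for 2896 of all 13541 tested genes. Ngp, a granule protein of neutrophils, was robust, at 2.12 and 1.83 against -2.44, -2.68 and -3.32 (4.79 ± 0.88, adjusted p 0.0123). The sham values lie near the level of 3 reads, so the size of that rise is understated. Ngp had a median of -2.73 and a maximum of 0.31 in the 6 drug-treated libraries. Without the untreated libraries it would not have passed the filter for testing, log2 CPM of at least 0 in 3 of 11 libraries. Il1r2, the decoy receptor for interleukin 1, was at 3.62 and 4.71 against 0.81, 0.44 and 1.38 (3.29 ± 0.64, adjusted p 0.0147). Trem1, an activating receptor of neutrophils and monocytes, rose by 2.38 and Hdc, which makes histamine, by 1.87. The summed level of the 18 listed markers, none at 0 in all 5 libraries, was 1040 and 489 CPM in untreated 17 and 19 and 208, 180 and 174 CPM in sham. Lcn2, a secreted iron-binding protein that other cells make too, held most of that sum, at 9.77 and 7.91 against 7.29, 6.93 and 6.72. Without Lcn2, a choice made after seeing the data, the sum of the other 17 was 166 and 249 CPM against 51.6, 58.7 and 68.5 CPM. The untreated libraries lay above sham either way, with untreated 17 the higher in the first sum and untreated 19 in the second. In bulk RNA, more cells of a type and more RNA per cell cannot be told apart. The count was 9 in the fit of these groups alone, 2 without untreated 19, and 2, 1 and 4 without sham 003, 006 and 007.

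Cytokines of the interleukin 6 family, which act on heart muscle through the transcription factor Stat3, rose in part. Of 15 tested genes 7 rose and none was called lower (median 0.75). Socs3, the feedback inhibitor of Stat3 signalling, was at 6.02 and 6.60 against 4.56, 4.45 and 4.73 (1.73 ± 0.34, adjusted p 0.0152). Osm, a cytokine that myeloid cells make, was at 1.93 and 1.60 against -0.42, -1.04 and 0.49 (2.09 ± 0.49). Its receptor Osmr rose by 0.92 and the family member Clcf1 by 1.99. Il6 itself was at 1.77 and 2.97 against -0.26, -0.58 and 1.02, above all sham libraries, and did not pass the threshold (2.31 ± 0.69, adjusted p 0.0576). The count was 2 in the fit of these groups alone and without untreated 19, 4 without either rivaroxaban library, and 1, 0 and 3 without sham 003, 006 and 007. The neutrophil marker sums above also lay above sham in both untreated libraries. Their part in these results and in the chemokine results was not tested.

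Interleukin 1 genes were mixed, with 3 of 15 called higher and 1 lower, against 5.07% higher and 5.52% lower over all tested genes. Besides Il1r2, the signalling receptor Il1r1 was at 5.68 and 6.75 against 5.30, 5.04 and 5.20 (1.03 ± 0.25, adjusted p 0.029), and Casp4, an inflammatory caspase, rose by 0.81. Nlrp1b, an inflammasome sensor, was at -0.02 and -0.93 against 1.70, 1.87 and 1.29 (-2.09 ± 0.44, adjusted p 0.0193). The cytokine Il1b overlapped, at 2.62 and 2.95 against 1.88, 2.26 and 3.14 (0.36 ± 0.41, adjusted p 0.566). The counts rested on single libraries: 0 higher and 0 lower were called without untreated 19 or without sham 006, 5 and 3 without untreated 17, 1 and 0 without sham 003, and 1 higher without sham 007.

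Immediate-early genes are switched on within minutes of a stimulus, and many encode transcription factors. In a list of them 9 of 23 rose, with a median of 0.82 and none called lower. Myc was at 4.67 and 4.96 against 2.83, 2.52 and 2.52 (2.19 ± 0.33, adjusted p 0.00566) and Maff, a small Maf factor, at 5.58 and 5.86 against 4.09, 3.69 and 4.06 (1.77 ± 0.29, adjusted p 0.00752), and both were robust. Arc, known from neurons and not a transcription factor, was at 3.56 and 6.22 against 1.64, 1.41 and 0.81 (3.60 ± 0.74), with untreated 19 far above untreated 17. Fosl2, a partner of Jun proteins, rose by 1.58. The count was 5 in the fit of these groups alone, 2 without untreated 19, 4 without sham 003 and 2 without sham 006. Of 14 brakes on the MAP kinase pathway, which many growth signals use, 3 rose: Spry4 (1.47 ± 0.23) and Spred3 (1.61 ± 0.25), both robust, and the phosphatase Dusp2 (1.91 ± 0.51). That count was 6 without untreated 17. Dusp2 was at -0.02 and 1.22 against -1.25, -1.13 and -1.55, and passed the filter for testing only with untreated 19.

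Genes known to respond to glucocorticoids were higher as a group. Of 16 tested, 12 were called higher, none was called lower, and 15 had both untreated libraries above all sham libraries. Over all 13541 tested genes, 2896 had both untreated libraries above sham. The median of the list was 1.52, at 1.13 in untreated 17 and 1.83 in untreated 19. Fkbp5, a co-chaperone that dampens the glucocorticoid receptor, was at 8.57 and 8.50 against 6.10, 5.37 and 6.21 (2.64 ± 0.55, limma adjusted p 0.0181). Cdkn1a, the cell cycle inhibitor p21, which p53 induces as well, was at 7.91 and 9.57 against 5.59, 5.26 and 5.57 (3.27 ± 0.58, adjusted p 0.0115). Ddit4, an inhibitor of mTOR, was at 6.92 and 7.84 against 6.17, 5.68 and 5.92 (1.46 ± 0.31, adjusted p 0.0195), and Klf9 at 7.28 and 7.92 against 6.91, 6.73 and 6.64 (0.84 ± 0.18, adjusted p 0.0195). The receptor gene, Nr3c1, named after its value was seen, differed by -0.36 and was not called. Within the sham group, replicate 006 was the lowest library for 12 of the 16 genes. No gene of the list was robust, and the count was 6 in the fit of these groups alone, 2 without untreated 19, 0 without sham 006 and 3 without sham 007.

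**Figure D4:**
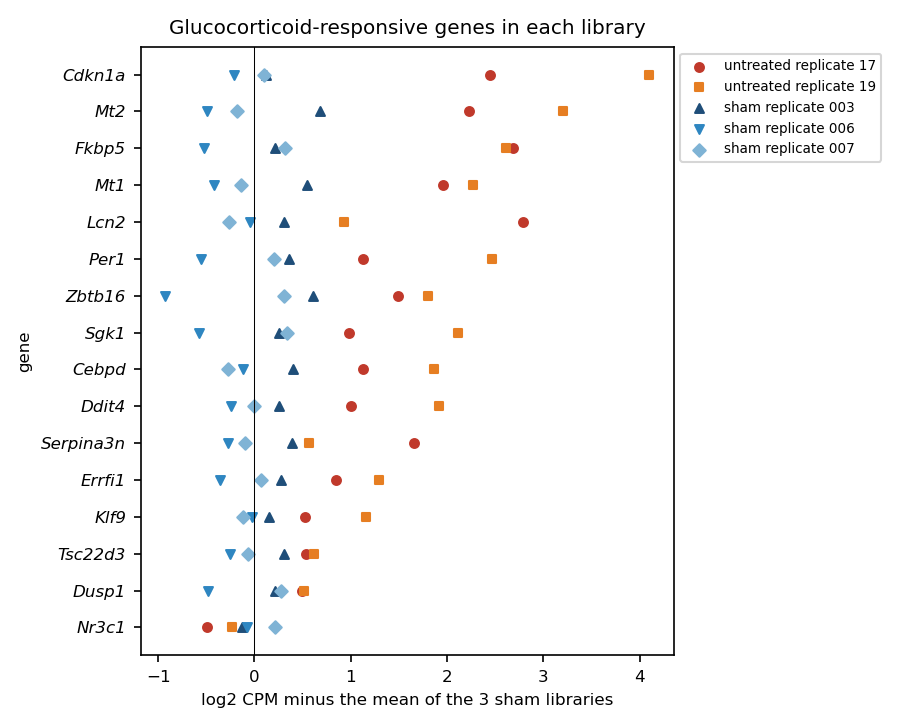
Log2 CPM minus the sham mean (horizontal axis) for the 16 tested glucocorticoid-responsive genes (vertical axis), with 1 symbol per library and the sham mean at 0. Both untreated libraries lie to the right of all sham libraries for 15 genes and to the left for Nr3c1, and sham replicate 006 lies at the left of the sham group for 12.

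The circadian clock shares Per1 with that list. Per1 was at 7.73 and 9.07 against 6.96, 6.04 and 6.80 (1.80 ± 0.43, adjusted p 0.0295), and Cry1, another repressor arm of the clock, at 4.54 and 5.68 against 3.37, 3.43 and 3.93 (1.53 ± 0.34, adjusted p 0.0224). They were the 2 of 17 clock genes called. The activator Arntl was at 3.97 and 5.69 against 2.89, 3.96 and 3.96 (1.23 ± 0.53, adjusted p 0.144), and the output gene Dbp at 5.33 and 4.40 against 6.85, 6.63 and 5.48 (-1.45 ± 0.56, adjusted p 0.112), neither past the threshold. The labels give no time of day. The count of 2 became 0 in the fit of these groups alone and without untreated 19, sham 003 or sham 006, 1 without sham 007, and 6 without untreated 17.

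Many markers of resident macrophages fell. Of 20 tested markers 12 fell and none was called higher, 8 of them robustly, with a median of -0.78. The other 8 overlapped sham. They were Lyve1 (-0.15), Mrc1 (-0.30), Mertk (0.04), Cd163 (0.25), Cx3cr1 (0.16), Clec10a (0.02), Siglec1 (-0.71) and F13a1 (-0.69), named after their values were seen. Cbr2, a carbonyl reductase of cardiac resident macrophages, was at 2.92 and 2.95 against 5.25, 5.01 and 5.0 (-2.16 ± 0.17, limma adjusted p 0.000246). Csf1r, the receptor for the growth factor that macrophages depend on, was at 5.13 and 5.02 against 6.52, 6.33 and 6.19 (-1.27 ± 0.17, adjusted p 0.00295). Fcrls and Vsig4 are given above. The summed level of the 20 markers, none at 0 in all 5 libraries, was 675 and 544 CPM in the untreated libraries and 1040, 922 and 902 CPM in sham. The count was 8 to 14 when 1 library was left out, and 8 in the fit of these groups alone.

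A few monocyte markers fell. Among 17 tested markers of monocytes and recruited macrophages, 3 fell and none was called higher. Lyz2, a lysozyme of myeloid cells, was at 6.21 and 6.18 against 8.41, 8.00 and 7.81 (-1.88 ± 0.17, adjusted p 0.000489) and robust. Ccr2, the receptor that brings monocytes out of the marrow, was at 2.19 and 2.27 against 3.94, 3.69 and 3.23 (-1.39 ± 0.31, adjusted p 0.024), and Itgax fell by 1.36. Fn1, the matrix protein fibronectin, differed by -0.85 ± 0.26 (adjusted p 0.0631). Of the markers not called, and named after their values were seen, Ly6c2 (0.01), Vcan (0.14) and Msr1 (0.09) overlapped sham and Chil3 lay above it (1.30 ± 0.75, adjusted p 0.255). The summed level of the 17 markers was 365 and 317 CPM against 716, 605 and 537 CPM in sham. Without Lyz2 and Fn1, left out after seeing the data, the other 15 overlapped, at 196 and 142 CPM against 185, 166 and 151 CPM. The count was 1 without untreated 19, sham 003 or sham 006.

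Chemokines for monocytes and lymphocytes moved both ways, with 1 of 12 called higher and 2 lower, all robust. Cxcl12, which holds leukocytes and progenitor cells in tissue, was at 6.99 and 6.71 against 8.01, 8.10 and 8.36 (-1.30 ± 0.14, limma adjusted p 0.00131). Ccl24, an eosinophil attractant that resident macrophages make, was at 1.42 and 0.63 against 2.49, 2.79 and 3.37 (-1.86 ± 0.31). Cxcl14 was at 6.32 and 6.15 against 4.40, 3.99 and 4.50 (1.94 ± 0.24, adjusted p 0.00255). Without untreated 17, 3 were called higher and 4 lower, and without untreated 19, 2 were called higher.

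Some genes of antigen presentation and complement, which macrophages express in part, fell. Of 8 tested MHC class II genes 3 fell: H2-DMb1, at 0.34 and 0.46 against 2.57, 2.63 and 2.14 (-2.05 ± 0.24, adjusted p 0.002), its partner H2-DMa (-1.50 ± 0.30), and Ciita (-1.70 ± 0.41), the factor that switches the class on. The chains that present peptides, H2-Aa, H2-Ab1 and H2-Eb1, and their chaperone Cd74, named after their values were seen, overlapped sham. H2-Aa was at 2.96 and 5.14 against 5.03, 5.24 and 4.45 (-0.86 ± 0.54, adjusted p 0.299), and in all 4 untreated 17 lay below sham and untreated 19 within its range. The list median was -1.95 in untreated 17 and -0.67 in untreated 19, and 6 genes were called without untreated 19, 1 without sham 003 or sham 006, and 1 in the fit of these groups alone. Of 15 complement genes 5 fell. C1qa and C1qc, chains of the first complement component, fell by 1.00 and 0.85, Cd55, which protects cells from complement, by 1.84, and C3ar1, a receptor for a complement fragment, by 0.92. The fifth, C1qb, is named to complete the count. C1qa, C1qb and C1qc are also on the resident macrophage list, so they are part of its falls and of its summed level. The complement count was 3 without sham 006 and in the fit of these groups alone. The resident macrophage sums above also lay below sham, at 675 and 544 CPM in untreated 17 and 19. They were lower in untreated 19, whereas the MHC class II median was lower in untreated 17. The part of these sums in either list was not tested.

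B cell markers were scarce. Blk, a kinase of B cells, was at 2.25 and 0.76 against 4.25, 4.55 and 3.84 (-2.71 ± 0.47, adjusted p 0.0106), and Ighm, the heavy chain of IgM, at 0.63 and 1.44 against 2.87, 3.19 and 1.91 (-1.62 ± 0.43, adjusted p 0.0405). These were the 2 of 8 tested markers called. The summed level was 12.1 and 11.1 CPM against 36.1, 43.6 and 24.7 CPM in sham. The count was 1 in the fit of these groups alone and without either rivaroxaban library, either activated protein C library or sham 003, and 0 without sham 006.

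Collagen genes split by type. Of 18 tested collagen genes 13 fell and 2 rose, with a median of -1.34. The genes of the fibrils that bear load were among the falls: Col3a1 was at 6.75 and 5.83 against 9.43, 9.07 and 8.50 (-2.71 ± 0.51, adjusted p 0.013), Col1a1 at 5.95 and 5.61 against 7.82, 7.88 and 7.31 (-1.89 ± 0.39, adjusted p 0.0177), and Col5a1 at 5.31 and 4.59 against 6.92, 6.76 and 6.71 (-1.85 ± 0.33, adjusted p 0.0116). Both untreated libraries lay below all sham libraries in each.

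Among the beaded-filament collagens, Col6a1 was at 5.34 and 6.07 against 7.25, 7.22 and 6.96 (-1.44 ± 0.27) and Col6a2 at 5.69 and 5.85 against 7.25, 7.33 and 6.94 (-1.40 ± 0.22, adjusted p 0.0067), and of the 13 falls that of Col6a2 was robust. The 2 rises were those of the basement membrane collagens, which sheathe vessels and muscle cells. Col4a1 was at 10.08 and 10.39 against 9.39, 9.45 and 9.31 (0.85 ± 0.13, adjusted p 0.00684), and Col4a2, which lies beside it in the genome and completes the count, rose by 0.67. Both rises were robust. The count of falls was 10 in the fit of these groups alone, 5 without untreated 19, 8 without either rivaroxaban library, and 4, 2 and 8 without sham 003, 006 and 007, and in the fit of these groups alone 1 rise was called.

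**Figure D5:**
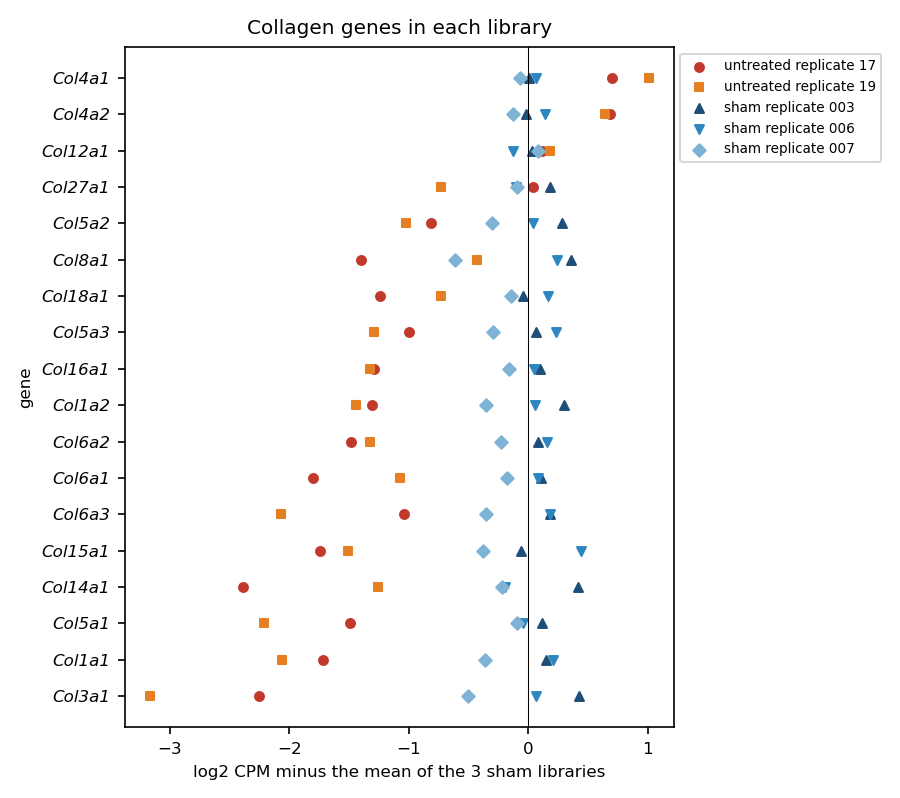
Log2 CPM minus the sham mean (horizontal axis) for the 18 tested collagen genes (vertical axis), with 1 symbol per library. Col4a1 and Col4a2 lie to the right of all sham libraries in both untreated libraries, Col12a1 and Col27a1 lie near 0 in at least 1 untreated library, and the called falls lie at the left.

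Some fibroblast markers fell, and 3 of the falls were collagens that the collagen list holds too. Of 20 tested markers 8 fell and none was called higher (median -0.85), among them Cilp and Fbln1, a matrix glycoprotein, at 5.90 and 6.06 against 6.66, 6.71 and 6.56 (-0.67 ± 0.14, adjusted p 0.0168). Others overlapped sham: Pdgfra, the growth factor receptor that defines fibroblasts, was at 6.11 and 6.62 against 6.16, 6.06 and 5.80 (0.36 ± 0.24, adjusted p 0.319), and Dcn (0.14), Mfap5 (0.03) and Ddr2 (-0.16) were not called. These 4 were named after their values were seen. The summed level of the 20 markers, none at 0 in all 5 libraries, was 1930 and 2420 CPM in untreated hearts and 3830, 3450 and 2930 CPM in sham. Without the 4 collagens in the list, left out after seeing the data, it was 1650 and 2190 CPM against 2560, 2370 and 2180 CPM, so untreated 19 overlapped sham. The part of this sum in the collagen result was not tested. The count was 5 in the fit of these groups alone, and 2, 1 and 5 without sham 003, 006 and 007.

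Some enzymes that remodel the matrix rose. In a list of 24 matricellular and remodelling genes 7 rose and 3 fell, with a median of 0.16 and a lowest difference of -2.36. The counts were the same in the fit of these groups alone, and 5 of the rises were robust. Adamts1, a protease that cuts versican, was at 7.85 and 8.31 against 5.93, 5.52 and 6.11 (2.23 ± 0.20, limma adjusted p 0.000489). Adamts9, a relative, was at 7.75 and 6.81 against 5.42, 4.59 and 5.29 (2.18 ± 0.28, adjusted p 0.00282). Mmp14, a membrane-bound collagenase, was at 5.50 and 5.45 against 4.62, 4.60 and 4.53 (0.89 ± 0.15, adjusted p 0.00963). The rises of this list kept their number within 1.5 times whichever library was left out, and the falls went from 3 to 1 without sham 003 and to 0 without sham 006.

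Endothelial markers were called in both directions. Of 20 tested markers 6 rose and 5 fell, with a median of 0.16. Cldn5, which seals the joints between endothelial cells, was at 7.15 and 6.42 against 4.74, 4.38 and 4.73 (2.16 ± 0.30, adjusted p 0.0039). Esam, an adhesion molecule of the same joints, was at 7.22 and 7.45 against 6.59, 6.42 and 6.46 (0.85 ± 0.13, adjusted p 0.00607), and the water channel Aqp1 at 9.97 and 9.71 against 9.01, 8.85 and 8.44 (1.08 ± 0.20, adjusted p 0.0119). These 3 rises and the fall of Aplnr were robust. The summed level of the list was 5740 and 5950 CPM in untreated hearts and 5330, 4580 and 4910 CPM in sham. In the fit of these groups alone 3 rose and 2 fell. Without either rivaroxaban library or any sham library 3 rises were called, and the falls numbered 3 without untreated 19 and 1 without sham 003 or sham 006.

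Receptors for sphingosine 1-phosphate, a lipid signal of blood and vessel wall, moved in opposite directions. S1pr1, which tightens the endothelial barrier, was at 7.54 and 7.61 against 6.61, 6.19 and 6.47 (1.15 ± 0.20, adjusted p 0.0112). S1pr2 was at 2.47 and 2.08 against 3.33, 3.40 and 3.34 (-1.08 ± 0.18, adjusted p 0.00919) and S1pr3 at 4.76 and 4.52 against 5.40, 5.38 and 5.41 (-0.76 ± 0.16, adjusted p 0.0186). Sphk1, the kinase that makes the lipid, was at 3.93 and 6.62 against 1.83, 1.66 and 1.35 (3.66 ± 0.69, adjusted p 0.0136). With S1pr4, named to complete the count, 2 of 10 genes rose and 3 fell, and S1pr2 was robust. The falls numbered 1 in the fit of these groups alone and without untreated 19 or any sham library. The rises numbered 4 without untreated 17 and 0 without sham 006.

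Smooth muscle and pericyte markers included 3 falls among 14, Mylk (-0.57 ± 0.12), Cnn1 (-1.86 ± 0.45) and Myh11 (-0.94 ± 0.23), parts of the contractile machinery. The summed level overlapped, at 4290 and 5020 CPM against 4260, 4990 and 4370 CPM. Without Des, which heart muscle cells share and which held most of it, the sum was 1370 and 1610 CPM against 1800, 1950 and 1910 CPM, below sham in both. None was called in the fit of these groups alone or without any 1 sham library, 6 were called without untreated 19 and 5 without either dabigatran library.

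In coagulation and fibrinolysis, the pathways that the study's drugs act on, 3 of 21 genes rose and 3 fell. Besides Plaur, F2r, the thrombin receptor PAR1, was among the rises and was at 5.59 and 6.05 against 5.28, 5.12 and 4.99 (0.69 ± 0.18, adjusted p 0.037). F3, tissue factor, which starts clotting, was at 3.33 and 3.82 against 4.53, 4.67 and 4.18 (-0.88 ± 0.23, adjusted p 0.0363).

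Vwf, the factor that tethers platelets, fell by 0.66, and F2rl1, a sister of the thrombin receptor named to complete the count, fell by 1.41. The receptors of the protein C pathway did not pass: Thbd was at 7.43 and 7.38 against 6.70, 6.52 and 6.90 (0.70 ± 0.30, adjusted p 0.146) and Procr at 1.71 and 1.53 against 1.03, 0.93 and 0.78 (0.71 ± 0.36, adjusted p 0.204), both with untreated libraries above sham. In the fit of these groups alone Plaur was the 1 gene of this list called. The rises numbered 7 without untreated 17 and 1 without untreated 19, either rivaroxaban library or any sham library. The falls numbered 1 without either rivaroxaban library and 0 without sham 003 or sham 006.

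Ligands and receptors around activin and TGF beta, signals that drive fibroblasts, rose in 6 of 22 cases, with 1 fall. Beside Inhbb, Bmp4 was at 3.86 and 5.64 against 2.89, 2.68 and 2.29 (2.13 ± 0.43, adjusted p 0.0168), and the receptor Tgfbr2 at 7.47 and 7.48 against 6.90, 6.51 and 6.83 (0.73 ± 0.15, adjusted p 0.0176). Fstl3, which binds and blocks activin, was at 3.23 and 3.56 against 2.08, 2.45 and 2.27 (1.13 ± 0.27, adjusted p 0.0304). Inhbb alone was robust and called in the fit of these groups alone. The rises numbered 2 without untreated 19, and 3, 1 and 3 without sham 003, 006 and 007. The fall, of Gdf11, was called in few of these fits: 0 genes were called lower without untreated 19, any sham library or any library of rivaroxaban or activated protein C, and 3 without untreated 17.

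Among adrenergic receptors and the kinases that silence them, 3 of 18 rose and none was called lower. Grk3, a relative of Grk5, was at 5.36 and 5.41 against 4.65, 4.37 and 4.55 (0.86 ± 0.14, adjusted p 0.00684), above the 4.04 to 4.41 of the drug-treated libraries. Pde4b, which breaks down cyclic AMP, was at 7.29 and 7.20 against 6.11, 6.16 and 6.75 (0.91 ± 0.22, adjusted p 0.0284). Grk5 and Grk3 were robust. Arrb1, the arrestin that binds receptors after these kinases, was at 5.42 and 4.38 against 5.79, 5.71 and 5.71 (-0.83 ± 0.25, adjusted p 0.06).

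Few genes of heart muscle stress were called. Of 12 tested, Ankrd2 rose and Mybpc2, a myosin-binding protein, fell by 1.00 ± 0.24. The shares over all tested genes were 5.07% higher and 5.52% lower, and nothing is read from these counts. The natriuretic peptide Nppb was at 5.06 and 9.31 against 6.58, 8.34 and 7.98 (-0.45 ± 0.97, adjusted p 0.781), with 1 untreated library below and 1 above all sham libraries. Nppa overlapped, at 5.77 and 6.66 against 5.91, 6.75 and 5.59 (0.13 ± 0.34, adjusted p 0.821). So did Myh6, at 15.14 and 15.54 against 14.84, 15.26 and 15.49, and Myh7, at 11.02 and 11.49 against 10.80, 11.20 and 11.89, the adult and fetal myosin heavy chains of the mouse ventricle. The calcium pump gene Atp2a2 was at 13.80 and 14.02 against 14.07, 14.05 and 14.05 (-0.15 ± 0.18, adjusted p 0.586). The heat shock genes Hspa1a (-0.84 and 1.10 against -0.03, -0.79 and 1.38) and Hspa1b (3.92 and 6.09 against 4.55, 3.95 and 5.89), near-identical copies whose reads may be split, overlapped too. Without untreated 17, 4 genes of the list were called higher, and the fall was not called without sham 003 or sham 006.

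Of 23 cardiac ion channel genes 2 fell, where 5.52% of all tested genes were called lower, and nothing is read from the count. Both encode potassium channels: Kcnj5 at 5.88 and 4.94 against 6.65, 6.72 and 6.90 (-1.34 ± 0.29, adjusted p 0.0203), and Kcnd2 at 4.82 and 4.85 against 5.81, 5.97 and 6.44 (-1.24 ± 0.29, adjusted p 0.0268). The list median was -0.61, and 8 genes were called lower without untreated 17, 4 without either dabigatran library, 1 without sham 007 and 0 without untreated 19, sham 003 or sham 006. In fatty acid uptake and oxidation, the main fuel path of the heart, 2 of 34 genes rose, near the background of 5.07%, and the median was 0.06 (-0.05 after quantile normalization). They were the uncoupling protein Ucp2 (0.84 ± 0.20) and Angptl4 (2.43 ± 0.67), an inhibitor of lipoprotein lipase. Pdk4, which spares glucose, was at 10.34 and 12.59 against 9.96, 7.31 and 8.74, wide apart within each group (2.79 ± 0.96, adjusted p 0.0819). Neither rise was called in the fit of these groups alone or without untreated 19, sham 006 or sham 007. Without either rivaroxaban or either activated protein C library 1 was called, and 4 without untreated 17.

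Targets of the hypoxia-inducible factors, which act when oxygen is short, were called in both directions. Of 19 tested genes 5 fell and 3 rose, with a median of -0.06. Vegfa, the vessel growth factor, was at 7.42 and 7.59 against 8.48, 8.88 and 8.73 (-1.19 ± 0.19, limma adjusted p 0.00684). P4ha1, an enzyme that hydroxylates collagen, was at 5.29 and 5.14 against 6.09, 6.42 and 6.33 (-1.07 ± 0.19, adjusted p 0.0106), and Ankrd37 fell by 1.69 ± 0.33. Pfkfb3, which speeds glycolysis, was at 5.52 and 6.66 against 4.49, 3.94 and 3.81 (2.01 ± 0.32, adjusted p 0.00747).

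Vegfa and Pfkfb3 were robust. In the fit of these groups alone 2 hypoxia targets fell and 1 rose. The falls numbered 2 without untreated 19, 3 without either rivaroxaban library, and 2, 1 and 3 without sham 003, 006 and 007, and the rises 5 without untreated 17 and 1 without sham 006.

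Chaperones of the endoplasmic reticulum, which fold secreted proteins, were lower in part. Of 21 tested genes 4 fell, none was called higher and 15 had both untreated libraries below all sham libraries, with a median of -0.62. Both untreated libraries lay below sham for 2992 of all 13541 tested genes. Sdf2l1 was at 3.98 and 3.46 against 5.21, 5.71 and 6.53 (-2.10 ± 0.40, adjusted p 0.0142), and the disulphide isomerase gene Pdia4 at 5.73 and 4.54 against 6.44, 6.83 and 8.00 (-1.96 ± 0.50, adjusted p 0.0349). Manf, a secreted stress factor, was at 6.26 and 5.19 against 6.67, 7.14 and 7.84 (-1.49 ± 0.39, adjusted p 0.0376), and Pdia6 fell by 0.93. Sham 007 was the highest sham library in these 4 genes. The count was 1 in the fit of these groups alone, 8 without untreated 17, 0 without untreated 19, 2 without either rivaroxaban library, 0 without sham 006 and 1 without sham 007.

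Targets of Nrf2, the factor that switches on antioxidant enzymes, rose in 4 of 21 cases. Txnrd1, thioredoxin reductase (robust), was at 7.91 and 7.95 against 6.54, 6.44 and 6.59 (1.41 ± 0.24, adjusted p 0.0099). Hmox1, which breaks down haem, was at 6.31 and 6.77 against 5.11, 4.91 and 4.31 (1.76 ± 0.49, adjusted p 0.0461), and the glutathione enzymes Gclc and Gsr rose by 1.36 and 0.76. Leaving out any 1 sham library left 1 call. The stretch ahead of a start of Txnrd1 (RefSeq, GRCm38.p6, chr10:82859054-82859173, plus strand) is shown for its antioxidant response element core. That start lies within the annotated gene (chr10:82833951-82897712) and not at its first base. The core, TGACNNNGC on either strand, is in capitals and here lies on the opposite strand.
Txnrd1: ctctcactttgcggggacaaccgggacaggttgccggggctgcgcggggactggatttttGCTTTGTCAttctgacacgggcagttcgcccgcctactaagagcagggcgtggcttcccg
The marked run begins 92 bases ahead of that inner start. The core was found in the promoters of 4 of 16 listed Nrf2 targets and of 13.8% of all 10392 tested genes with a promoter in the table. Of the 4 targets called higher, 1 had such a promoter to search, and that was Txnrd1.

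Factors that build ribosomes were shifted up by a small amount: 24 of 30 had both untreated libraries above all sham libraries, 6 were called and the median was 0.49. Of all 13541 tested genes, 2896 had both untreated libraries above sham, and 5.07% were called higher. Ddx21, an RNA helicase of the nucleolus, was at 7.08 and 7.24 against 6.22, 6.22 and 6.51 (0.84 ± 0.18, adjusted p 0.019), and Mybbp1a at 7.26 and 7.53 against 6.67, 6.78 and 6.78 (0.65 ± 0.14, adjusted p 0.0183). The count depended on the libraries: 19 without untreated 17, 0 without untreated 19, sham 003 or sham 006, 3 without sham 007 or either rivaroxaban library, and 1 in the fit of these groups alone.

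Gene lists of the contractile and energy-making parts of heart muscle had no called member. None of 15 sarcomere and calcium handling genes, 12 ventricular muscle cell markers, 19 genes of the tricarboxylic acid cycle, 33 respiratory chain subunits and 27 cytosolic ribosomal proteins was called by limma, by limma voom on recovered reads or in the fit of these groups alone, and 0 had an unadjusted p under 0.05. Their medians were 0.08, 0.08, 0.01, -0.02 and 0.03. After quantile normalization, those that were positive turned to -0.12, -0.12, -0.08 and -0.03, so no direction can be given.

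Noncoding genes made up 60 of the called genes, 27 higher and 33 lower, out of 673 tested. That is 8.92% (4.01% higher and 4.90% lower), at or below the 10.6% of all tested genes, and nothing is read from the count. The 3 largest rises were 1200007C13Rik (4.87 and 4.05 against 2.25, 1.06 and 1.33), A930001C03Rik (3.70 and 2.48 against 0.39, 0.31 and 0.34) and Gm26902 (0.15 and 0.73 against -3.00, -1.13 and -1.55). Without the untreated libraries, Gm26902 would not have passed the filter for testing. The largest falls were those of 5031425F14Rik (-2.41 and -2.27 against 0.81, 0.73 and 0.84), which was robust, A930006K02Rik (-0.43 and -3.93 against 1.32, 0.27 and 0.72) and Gm12426 (-0.49 and -2.54 against 1.01, 1.22 and 1.02). A930006K02Rik stood at the lowest value of the library in untreated 19, was called in 1 of the 11 fits that leave out a library, and had an adjusted p of 0.14 in the fit of these groups alone. The strand setting of the counting is not given in the sources used here, so reads of overlapping genes cannot be told apart.

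The 2 untreated hearts also differed from each other in single genes. In untreated 19, 1016 genes lay lower than the sham mean by 1 or more while untreated 17 was within 0.5 of it, and 548 lay higher in the same way. The reverse held for 123 and 83 genes. Of the 1435 called genes, 1066 had the larger difference in untreated 19. Among genes with a mean of at least 1, the largest gaps upward in untreated 19 were those of Nppb, of Afap1l2 (1.75 and 5.86 against 2.77, 2.72 and 2.88), of Cyr61, a matricellular gene that stretch and serum induce (5.78 and 9.45 against 5.93, 6.10 and 6.60), of Cfap53 (0.84 and 4.47) and of Srarp (0.11 and 3.74). With 1 library on each side, none of these gaps has a replicate check.

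The largest gaps downward in untreated 19 were those of Zfp759 (2.10 and -2.05 against 2.20, 2.02 and 2.14), Kctd21, Spice1, Cpsf4l and Senp8. Zfp759 is a zinc finger gene, a large family of DNA-binding repressors. Genes named Zfp, Zscan or Zkscan, a set chosen after values were seen and given with no test, numbered 342. Of these 106 (31%) were lower in untreated 19 than in untreated 17 by 1 or more and 6 were higher by as much, against 1449 (10.7%) and 778 of all tested genes. Their median difference from sham was 0.07 in untreated 17 and -0.39 in untreated 19, and -0.03 to 0.10 in the 6 drug-treated libraries. In the comparison of the groups 5 of them were called higher and 5 lower.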

How the data were processed

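The authors deposited 1 table of log2 CPM values normalized by TMM. Tools named in the submitters' processing notes are STAR, Trim Galore, FastQC, bcl2fastq and edgeR, with build mm10. Tool versions, read counter, annotation release and strandedness are not given in the sources used. Whole reads were recovered for 100% of values (within 0.05 of a read). Genes with log2 CPM of at least 0 in 3 of 11 libraries were tested (13541 of 16658) with limma 3.58.1 in R 4.3.3 (limma-trend, 5 group means, 6 residual degrees of freedom), which was checked on simulated data. The simulation gave all libraries of a gene the same spread, so it does not check the wider spread of the untreated group. Alternatives were other filters, pseudocount, scaling, weights (statmod 1.5.0), voom on recovered reads, a fit of 2 groups and leaving out each library. Positions are GENCODE M21. The comparison, lists and rules were chosen with earlier results of these data known. Named were the 12 largest robust changes per direction (mean of at least 1, no predicted genes), up to 4 members per described list with the smallest p, a fixed set, the 5 largest gaps per direction between the untreated libraries and the 3 largest noncoding changes per direction. Others are said to be outside this rule, and 1 gene that it takes is not reported here. Lists were described by counts, with no test. Of 54 lists, 31 are described.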

Additional observations from a re-analysis of the deposited data

How the results depend on the processing

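The number of called genes was 1435, the same as the number called with both untreated libraries outside the sham range. It was 471 in the fit of untreated and sham libraries alone, 25 with library weights, and 261 to 5197 when 1 library was left out, the extremes being those without sham 006 and without untreated 17. It stayed between 1289 and 1470 with no filter, a stricter filter, log2(CPM + 1), median centring, quantile normalization and voom. Of 128 named called genes, 88 were called in the fit of these groups alone, 12 with library weights, and 59 to 126 when 1 library was left out. The cause of these changes was not tested. Directions turned for some genes that were not called. With library weights Myh7 was 0.17 and Hspa1a 0.11, and after quantile normalization Myh6 was 0 and Hspa1a 0.21. When 1 library was left out, the values ran from -0.34 to 0.84 for Tnf, from -2.57 to 1.68 for Nppb, from -0.05 to 0.34 for Myh6, from -0.32 to 0.58 for Nppa, from -0.29 to 0.25 for Myh7, from -0.88 to 1.29 for Hspa1b, from -1.03 to 0.91 for Hspa1a, from -1.04 to 3.07 for Afap1l2, from -0.43 to 3.24 for Cyr61, from -0.53 to 3.10 for Srarp and from -3.82 to 0.02 for Cpsf4l. Without an untreated library, the lone one left is assumed to vary like the other groups. No paired analysis was possible because the groups share no replicate number. Depth limits genes near 3 reads.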

Other observations

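Single genes on lists of scarce cell types stood out and were named after their values were seen. Kit, the growth factor receptor of mast cells, also present on some other cells, was at 4.58 and 4.37 in the untreated libraries against 2.17, 2.75 and 2.26 in sham (2.09 ± 0.32, limma adjusted p 0.00593). The other 4 tested mast cell markers lay below all sham libraries without passing the test, and the list median was -0.71. The summed level of the 6 listed markers other than Kit was 2.68 and 2.15 CPM against 4.41, 5.09 and 4.13 CPM. Wt1, a transcription factor of the outer lining of the heart, was at 4.81 and 4.88 against 3.29, 2.82 and 3.76 (1.56 ± 0.30, adjusted p 0.0148). The median of the 5 tested markers of that lining was -1.12 in untreated 17 and 1.44 in untreated 19, and the 7 listed markers other than Wt1 summed to 1.32 and 6.25 CPM against 3.46, 3.16 and 3.75 CPM, so the untreated libraries lay on opposite sides of sham.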
